A study of Mus musculus with 8 samples.

Results

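The natriuretic peptide system was followed through 10 genes in the left ventricle of Mst1 transgenic mice: the peptide genes Nppa, Nppb and Nppc, the receptor genes Npr1, Npr2 and Npr3, and the genes of 4 enzymes that process or degrade peptides, Corin, Furin, Pam and Mme. The genes were taken from the table by symbol. All 10 were found among the 55385 genes of the count table, and 9 of them were among the 15314 genes tested. Nppc had too few counts to be tested.

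The libraries are 4 labelled Mst1-TG and 4 labelled WT, all of left ventricle from male C57BL6 mice. Mst1-TG mice carry an Mst1 transgene under the alpha-myosin heavy chain promoter, which limits it to cardiomyocytes, and they have experimental dilated cardiomyopathy. WT mice are littermates without the transgene. The design text gives an age of 3 weeks, the extraction protocol 3 months, and the growth protocol names adults of 5.5 months besides the young mice, so the stated ages differ. Mst1, encoded by Stk4 in the mouse, is a kinase of the Hippo pathway. The labels number the samples without stating that each is a separate animal.

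Atrial and brain natriuretic peptide (Nppa, Nppb) are hormones made by cardiomyocytes, the first mainly in the atria of the adult heart, and both are known for their return in the stressed ventricle. Both are made as larger precursors: corin, a transmembrane serine protease of cardiomyocytes, cuts the precursor of atrial natriuretic peptide, and furin, a protease of the secretory pathway, cuts the precursors of the brain and C types. The hormones bind Npr1, and C-type natriuretic peptide (Nppc) binds Npr2. Both receptors are guanylyl cyclases that make cGMP, while Npr3 removes all 3 peptides from the circulation, and neprilysin (Mme) degrades them.

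No run of 31 bases was common to the GENCODE M21 transcripts of any 2 of the 3 peptide genes in the same orientation, so reads of this length could be assigned to one or the other.

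Nppa and Nppb lie side by side on chromosome 4, with 13516 bases between the end of Nppb and the start of Nppa. The 300 bases around each start (250 before and 50 after) are shown because these neighbours rose in the same libraries by very different amounts. They come from the RefSeq promoter table (GRCm38.p6), chr4:148000472-148000771 for Nppa and chr4:147985650-147985949 for Nppb, both on the forward strand. Capitals mark matches, on either strand, to the TEAD motif CATTCC, the GATA motifs AGATAA and TGATAA, the NKX2-5 motif AAGTG, the T-box motif AGGTGT, and TATAAA. The CArG box of serum response factor was also searched, and no motif match overlapped another.
Nppa: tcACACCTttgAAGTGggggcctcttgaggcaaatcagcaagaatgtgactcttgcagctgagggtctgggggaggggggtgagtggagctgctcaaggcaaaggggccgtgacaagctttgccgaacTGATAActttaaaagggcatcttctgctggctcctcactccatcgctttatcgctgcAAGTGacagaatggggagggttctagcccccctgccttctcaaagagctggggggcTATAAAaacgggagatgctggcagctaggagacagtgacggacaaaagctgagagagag
Nppb: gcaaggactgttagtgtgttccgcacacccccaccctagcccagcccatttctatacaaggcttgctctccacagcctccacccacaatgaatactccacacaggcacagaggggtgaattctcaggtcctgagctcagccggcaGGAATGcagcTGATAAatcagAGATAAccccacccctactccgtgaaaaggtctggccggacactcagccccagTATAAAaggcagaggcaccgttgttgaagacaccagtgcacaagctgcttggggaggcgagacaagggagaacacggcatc
The start used for Nppb lies 112 bases inside the gene as GENCODE M21 annotates it, so its matches lie after the GENCODE start. For Nppa both starts are the same. The Nppa window held 1 TGATAA, 2 AAGTG and 1 AGGTGT match. The Nppb window held 1 CATTCC, 1 TGATAA and 1 AGATAA match, and neither held a CArG box. Of 32851 windows of the same length, 14.7% held CATTCC, 11.2% AGATAA, 9.05% TGATAA, 46.4% AAGTG, 13.7% AGGTGT, 1.63% a CArG box and 13.6% TATAAA. The windows of Npr1, Npr3, Corin and Pam held none of these motifs, and Mme held CATTCC in 1 of its 3 windows. Furin held 5 AAGTG and 1 TATAAA match in 1 of its windows, Npr2 held 1 AGGTGT and Nppc 1 TATAAA.

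Libraries held 21193536 to 23809256 counts, and on the second principal component the library WT 4 stood away from the remaining WT libraries. Mitochondrially encoded genes took 21.4% to 23.8% of the counts in WT and 12.9% to 14.4% in Mst1-TG. The scaling of libraries bears on small changes, and the part of the mitochondrial share in this was not tested. The median log2 fold change of all genes was 0.01 with the TMM scaling used here and 0.29 with library totals as the only scaling. Stk4, the gene of the transgene, was at 25.2 to 29.6 CPM (counts scaled to effective library size by TMM) in WT and at 1449 to 1747 CPM in Mst1-TG, in the direction of the labels. Ventricular cardiomyocyte markers (Myh6, Tnnt2, Actc1, Myl2, Myl3, Tnni3 and Ryr2) summed to 46537 to 55666 CPM in WT and 32843 to 41859 CPM in Mst1-TG. Of the 7, 5 were called lower (3 with library totals only). In whole tissue, fewer cells of a type and less RNA per cell cannot be told apart.

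Of the 9 tested genes, 3 rose in Mst1-TG (Nppa, Nppb and Pam), 1 fell (Mme), and 5 did not pass (Npr1, Npr2, Npr3, Corin and Furin). Changes were called by the quasi-likelihood F test of edgeR at a Benjamini-Hochberg adjusted p below 0.05 over all genes tested. In that comparison 42.3% of all tested genes were called, 21.2% higher and 21.1% lower, so the share of these genes called is near the background. The same shares are the background of every other gene list counted in this report. The median log2 fold change of the 9 was 0.06. Scaled by library totals only, 6 of the 9 were called higher and 1 lower, against 7409 higher and 1592 lower genes in all.

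**Figure D1:**
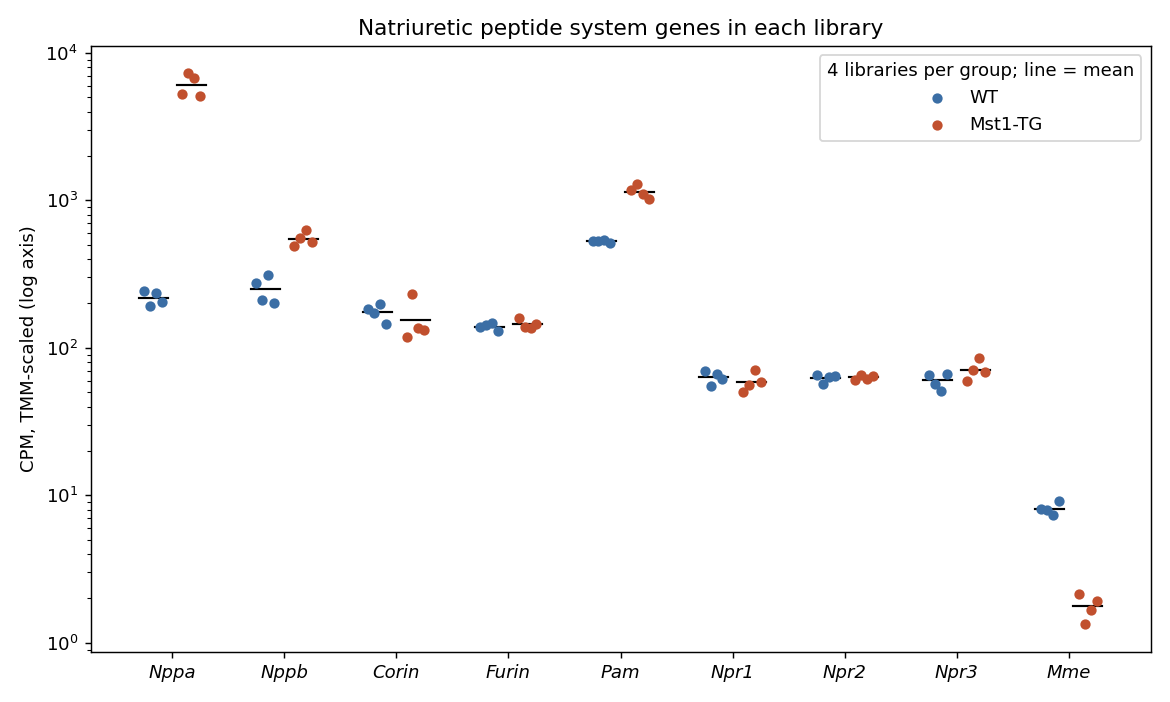
TMM-scaled CPM (log axis) of the 9 tested genes in each of the 4 WT (blue) and 4 Mst1-TG (red) libraries, with a line at each group mean. The groups stand apart for Nppa, Nppb, Pam and Mme, and overlap for Corin, Furin, Npr1, Npr2 and Npr3. The share of all 15314 tested genes whose groups stand apart is not given here, and 42.3% of the tested genes were called.

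Nppa, the atrial peptide gene, rose the most. In WT libraries 1 to 4 it was at 243, 191, 234 and 206 CPM, and in Mst1-TG libraries 1 to 4 at 5236, 7252, 6748 and 5100 CPM. The lowest transgenic library was far above the highest WT library. The change was 4.80 ± 0.15 on the log2 scale (SE, edgeR adjusted p = 3.4e-10). Among all genes of a library, Nppa ranked between 550 and 754 by count in WT and between 10 and 12 in Mst1-TG, where it took 0.558% to 0.784% of all counts. Nppa (ENSMUSG00000041616.9) spans chr4:148000722-148002079 on the forward strand.

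Nppb, the brain-type peptide gene, rose far less. Its WT values were 274, 211, 311 and 200.0 CPM in libraries 1 to 4, and its Mst1-TG values 491, 555, 628 and 520 CPM. The groups did not overlap, with a change of 1.14 ± 0.14 (SE, edgeR adjusted p = 4.9e-05). Nppb (ENSMUSG00000029019.8) spans chr4:147985788-147987205.

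The pair therefore changed unequally. Counts of Nppa per count of Nppb were 0.887, 0.905, 0.751 and 1.03 in WT libraries 1 to 4 and 10.7, 13.1, 10.7 and 9.81 in Mst1-TG libraries 1 to 4. In the WT ventricle the pair was close to parity and in each transgenic ventricle Nppa outnumbered Nppb. The ratio was higher by 3.63 on the log2 scale (exact permutation test, two-sided p = 0.0286, adjusted p = 0.0286 over 3 ratios), the smallest p that 4 against 4 can give.

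Nppc, the C-type peptide gene, was very low. It had 5, 3, 3 and 0 counts in WT libraries 1 to 4 and 9, 3, 11 and 2 in Mst1-TG libraries 1 to 4, and a count of 0 in WT 4 allows up to 0.151 CPM. The 25 transgenic counts against 11 WT counts gave a scaled ratio of 1.92 with an exact 95% interval of 0.912 to 4.33, which covers counting error only. No difference was detectable at this depth. Nppc (ENSMUSG00000026241.5) spans chr1:86666291-86670571 on the reverse strand.

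Values for the atrium and for an antisense gene stand beside the rise of Nppa. Gm13054 (chr4:148001091-148004014, reverse strand) is annotated antisense to Nppa, and was singled out after its values were seen. Its level was 0.92 ± 0.16 CPM in WT libraries, against 9.34 ± 2.54 CPM in transgenic ones (SD, n = 4). The log2 fold change was 3.33 ± 0.23 (SE, edgeR adjusted p = 1.36e-07). Of its 820 exonic bases, 532 are shared with Nppa, and since the strand setting of the counting is not given in the sources used here, reads of this stretch cannot be assigned to one strand. Npr1, Npr2, Corin and Furin are also overlapped by annotated antisense genes, to which the same limit applies. Npr3 and Pam are overlapped on the opposite strand by genes of other annotated types, among them Gm5144 at Npr3, with the same limit where exons are shared. The counts of Gm13054 were 0.343% to 0.46% of those of Nppa in WT and 0.101% to 0.183% in Mst1-TG.

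Of the tested atrial cardiomyocyte markers, only Dkk3 passed as higher beside Nppa with the settings used here. Of 7 listed markers, Bmp10, which is restricted to the atria in the adult heart, had 0 counts in every library. The atrial regulator of the calcium pump Sln was at 7.23 to 11.4 CPM in WT and 1.80 to 6.81 CPM in Mst1-TG, and the atrial light chain Myl7 at 44.3 to 58.3 and 13.7 to 42.7 CPM. The light chain Myl4 was at 37.0 to 58.0 CPM in WT and 15.7 to 41.0 CPM in Mst1-TG. These 3 and the potassium channel Kcna5 fell, and Dkk3 rose by 1.43 ± 0.10 (SE, edgeR adjusted p = 2.32e-07). Stard10, at 0.28 ± 0.11, narrowly did not pass (edgeR adjusted p = 0.051). It passed as higher with library totals only (4.3e-04), no filter on low counts (0.0083) or a filter of 1 CPM in 4 libraries (0.048). It also passed without Mst1-TG 3 (0.031), Mst1-TG 4 (0.048) or WT 1 (0.029). With library totals only, 2 of the 6 tested markers were higher and 1 lower. The falls among these markers were fragile. Myl7 (edgeR adjusted p = 0.046) lost its call with library totals only (0.095) and without any single library other than Mst1-TG 1 (0.051 to 0.121), and Myl4 (0.049) with library totals only (0.114) and without any single library other than Mst1-TG 1 or WT 3 (0.072 to 0.110). With no filter on low counts the calls of Myl7 (0.122), Myl4 (0.132) and Sln (0.059) were lost. Sln (0.016) also lost it without Mst1-TG 3 (0.052) and Kcna5 (0.0050) with library totals only (0.239). The log2 fold change of Myl7 stayed between -1.43 and -0.73 and that of Myl4 between -1.29 and -0.66 in every alternative run. The markers' summed level was 235 to 280 CPM in WT and 201 to 285 CPM in Mst1-TG.

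Nppa is also made in the conduction system and in trabecular cardiomyocytes. Among genes of these cells, named after their values were seen, Etv1, a transcription factor, rose by 0.52 ± 0.07 (SE, edgeR adjusted p = 7.44e-05) from 17.04 ± 0.707 CPM (SD, n = 4). Cntn2, a cell adhesion gene, rose by 0.58 ± 0.18 (SE, edgeR adjusted p = 0.0256), a call lost without Mst1-TG 2 (0.069), WT 3 (0.067) or WT 4 (0.058). Gja5, Hcn4 and Irx3 had log2 fold changes of 0.22 ± 0.16, -0.39 ± 0.19 and -0.20 ± 0.08 and did not pass. The part of these cells in the rise of Nppa was not tested.

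**Figure D2:**
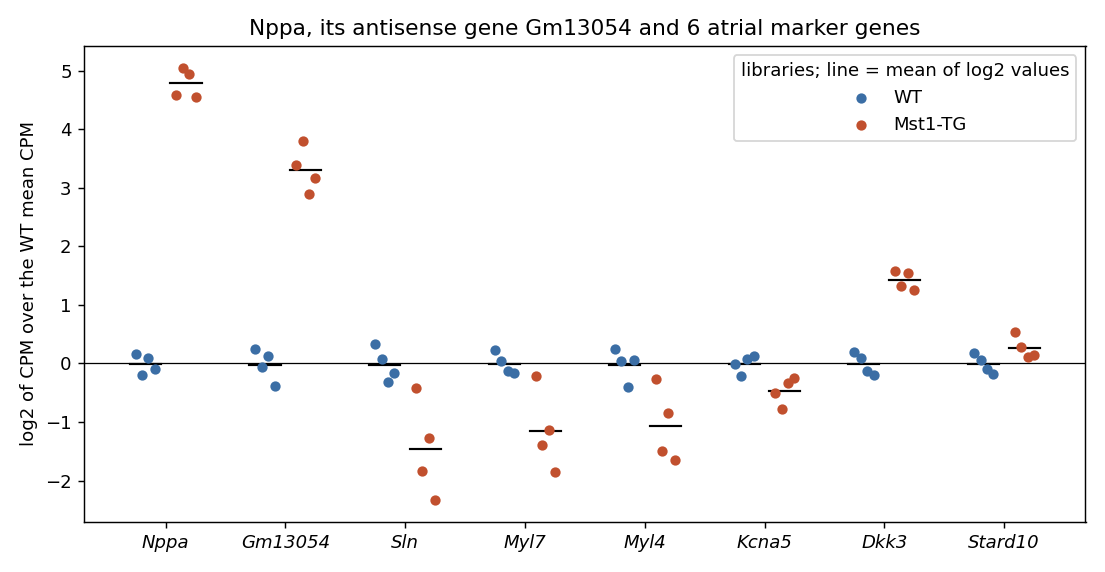
Log2 of CPM over the WT mean for Nppa, its antisense gene Gm13054 and 6 atrial marker genes in each library (blue WT, red Mst1-TG, line at the mean of the log2 values). Nppa, Gm13054 and Dkk3 are higher in all 4 transgenic libraries, while the transgenic values of Sln, Myl7, Myl4 and Kcna5 lie below the WT mean.

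With the scaling used here, genes next to the peptide pair did not share its rise. Of 11 coding genes on this stretch of chromosome 4, 9 were tested, 1 rose, 2 fell and 6 did not pass, with a median log2 fold change of -0.04 (5 higher and 1 lower with library totals only). Genes at large were called higher in 21.2% and lower in 21.1% of cases. Clcn6, a chloride transporter gene on the reverse strand whose near edge lies 2179 bases beyond Nppa, was at 17.97 ± 0.65 CPM in the WT libraries, against 17.2 ± 1.78 CPM with the transgene (SD, n = 4). Its log2 fold change was -0.06 ± 0.09 (SE, edgeR adjusted p = 0.595). Mfn2, a mitochondrial fusion gene, fell by 0.61 ± 0.07 and Fbxo44, a ubiquitin ligase component, by 0.51 ± 0.12, and the fall of Fbxo44 did not pass with library totals only (-0.23, adjusted p = 0.12). Mad2l2, a DNA repair gene, rose by 0.30 ± 0.10. That call was lost when low counts were not filtered (adjusted p = 0.083) and without each of Mst1-TG 3, Mst1-TG 4, WT 1 and WT 3 (adjusted p = 0.085, 0.056, 0.090 and 0.053).

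The proteases that cut the precursors did not pass. Corin was at 184, 173, 197 and 144 CPM in WT libraries 1 to 4 and at 119, 232, 137 and 133 CPM in Mst1-TG libraries 1 to 4. Mst1-TG 2 was the highest of all 8 libraries, and the other 3 transgenic libraries were below every WT library. The log2 fold change was -0.17 ± 0.21 (SE, 95% interval -0.64 to 0.30, edgeR adjusted p = 0.552). Without Mst1-TG 2 the change was -0.43 (edgeR adjusted p = 0.0039), a fall that passed. Library totals as the only scaling gave 0.11. Corin spans chr5:72300025-72504473 on the reverse strand.

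Nppa and Corin changed unequally. Counts of Nppa per count of Corin were 1.32, 1.10, 1.19 and 1.42 in WT libraries 1 to 4 and 44.0, 31.3, 49.3 and 38.4 in Mst1-TG libraries 1 to 4. The ratio differed by 5.002 on the log2 scale (exact permutation test, two-sided p = 0.0286, adjusted p = 0.0286 over 3 ratios), the smallest p possible here. The rise of Nppa is large enough to separate the groups in this ratio by itself, so this p says nothing about a change of Corin. Mst1-TG 2, with the most Corin, still had a ratio far above every WT library.

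Furin was at 138, 143, 147 and 131 CPM in WT libraries 1 to 4 and at 159, 138, 137 and 146 CPM in Mst1-TG libraries 1 to 4. Furin spans chr7:80388585-80405436 on the reverse strand. The groups overlapped (0.06 ± 0.07 SE, 95% interval -0.09 to 0.20, edgeR adjusted p = 0.525). With library totals only, the change was 0.34 and passed (adjusted p = 7.5e-04), in a scaling that moved the median gene by a similar amount.

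**Figure D3:**
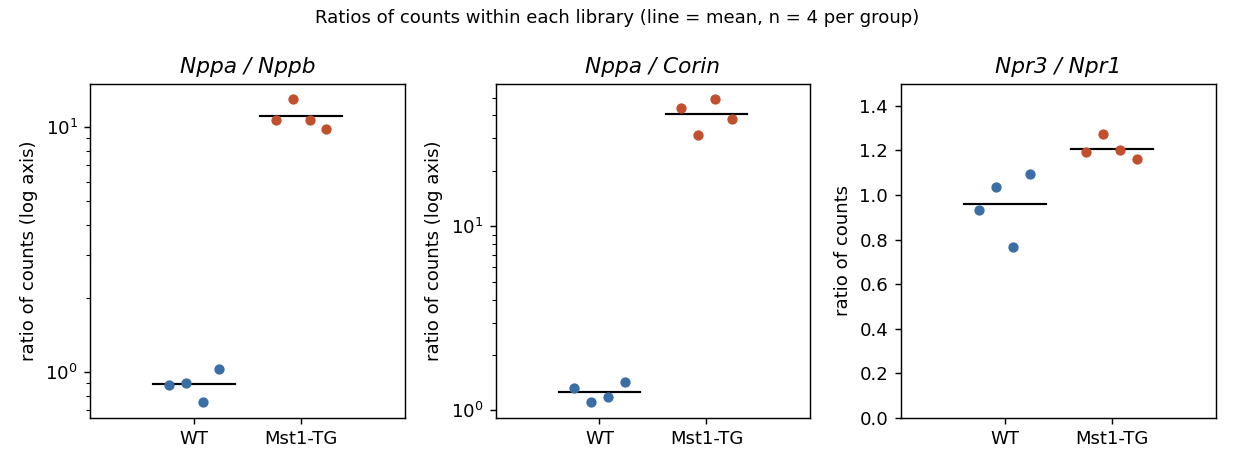
Ratio of counts of Nppa to Nppb, Nppa to Corin (both log axes) and Npr3 to Npr1 (linear axis from 0) in each library, with a line at each group mean (n = 4 per group). For all 3 ratios the lowest Mst1-TG library lies above the highest WT library.

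Pam, an amidating enzyme that is also an abundant membrane protein of atrial secretory granules, rose. Its WT values were 533, 532, 540 and 518 CPM in libraries 1 to 4, and its Mst1-TG values 1183, 1292, 1098 and 1014 CPM. The transgenic libraries were all well above the narrow WT range, with a log2 fold change of 1.11 ± 0.08 (SE, edgeR adjusted p = 2.4e-07). Pam spans chr1:97795114-98095646 on the reverse strand. Fibroblast markers (Pdgfra, Tcf21, Dpt, Lum, Col1a1, Col3a1, Dcn and Mfap5) moved with it: 8 of 8 rose, and their sum was 2326 to 3075 CPM in WT and 4892 to 6832 CPM in Mst1-TG. Their part in the rise of Pam was not tested.

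Mme, which encodes neprilysin, fell from a low level. It was at 8.03, 7.96, 7.37 and 9.12 CPM in WT libraries 1 to 4 and at 2.15, 1.34, 1.67 and 1.92 CPM in Mst1-TG libraries 1 to 4. No libraries overlapped, and the log2 fold change was -2.19 ± 0.16 (SE, edgeR adjusted p = 2.6e-07). Mme spans chr3:63241537-63386030 on the forward strand. Fibroblasts and leukocytes are known to carry neprilysin. The fibroblast markers rose in the same libraries, as given above, and 0 of 7 tested leukocyte markers passed (4 were called higher with library totals only; sums of 197 to 281 CPM in WT and 220 to 286 CPM in Mst1-TG). The 9 pericyte and smooth muscle markers held 1 rise and 3 falls, against 5 rises and 1 fall with library totals only (1871 to 2209 CPM in WT and 1412 to 1719 CPM in Mst1-TG). The part of these cells in the fall of Mme was not tested.

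None of the receptor genes passed. Npr1, the receptor of the atrial and brain types, was at 70.2, 55.0, 66.7 and 61.2 CPM in WT libraries 1 to 4 and at 49.98, 55.7, 70.5 and 58.9 CPM in Mst1-TG libraries 1 to 4. The groups overlapped (-0.11 ± 0.10 SE, 95% interval -0.33 to 0.12, edgeR adjusted p = 0.446), and the sign turned with library totals only (0.18). Npr1 spans chr3:90450591-90465866 on the reverse strand.

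Npr2, the receptor of the C type, had the narrowest interval of the 3. Its values were 65.5, 56.9, 63.6 and 64.2 CPM in WT libraries 1 to 4 and 60.7, 65.8, 61.3 and 64.2 CPM in Mst1-TG libraries 1 to 4. The difference was 0.01 ± 0.06 (SE, 95% interval -0.13 to 0.15, edgeR adjusted p = 0.916). Under library totals only it was 0.29 (adjusted p = 0.0020), the same to 2 decimals as the shift of the median gene under that scaling. Npr2 spans chr4:43631935-43651244 on the forward strand.

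Npr3, the clearance receptor, is strong in the endocardium, the inner lining of the heart. It was at 65.4, 57.1, 51.2 and 67.0 CPM in WT libraries 1 to 4 and at 59.5, 70.9, 84.9 and 68.5 CPM in Mst1-TG libraries 1 to 4. Npr3 spans chr15:11839896-11907287 on the reverse strand. Of the transgenic libraries 3 were above all WT libraries and Mst1-TG 1 was within their range. The difference of 0.24 ± 0.11 (SE, 95% interval -0.01 to 0.48) did not pass (edgeR adjusted p = 0.109). It passed without Mst1-TG 1 (0.31, adjusted p = 0.030), with no filter on low counts (0.24, adjusted p = 0.0082) and with library totals only (0.52, adjusted p = 0.0030). Of 5 endocardial markers, Plvap and Vwf rose, Cytl1 fell, and Nfatc1 and Hapln1 did not pass. With library totals only, 3 were higher and 1 lower. Their sums were 258 to 301 CPM in WT and 360 to 565 CPM in Mst1-TG. Most of this was Vwf, at 163 to 204 and 232 to 410 CPM, while Nfatc1 had means of 32.7 and 35.0 CPM and Cytl1 of 26.6 and 14.5 CPM. The part of endocardial cells in the level of Npr3 was not tested. Vascular endothelial markers held 4 falls and 0 rises among 7 (0 and 0 with library totals only).

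The balance of clearance to signalling receptor differed between the groups. Counts of Npr3 per count of Npr1 were 0.932, 1.04, 0.768 and 1.09 in WT libraries 1 to 4 and 1.19, 1.27, 1.203 and 1.16 in Mst1-TG libraries 1 to 4. All transgenic ratios were above all WT ratios, by 0.35 on the log2 scale on average (exact permutation test, two-sided p = 0.0286, adjusted p = 0.0286 over 3 ratios). Without any 1 transgenic library the adjusted p was 0.0571, with a log2 difference of 0.32 to 0.36. A ratio shows unequal change and does not say which of the receptors changed.

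**Figure D4:**
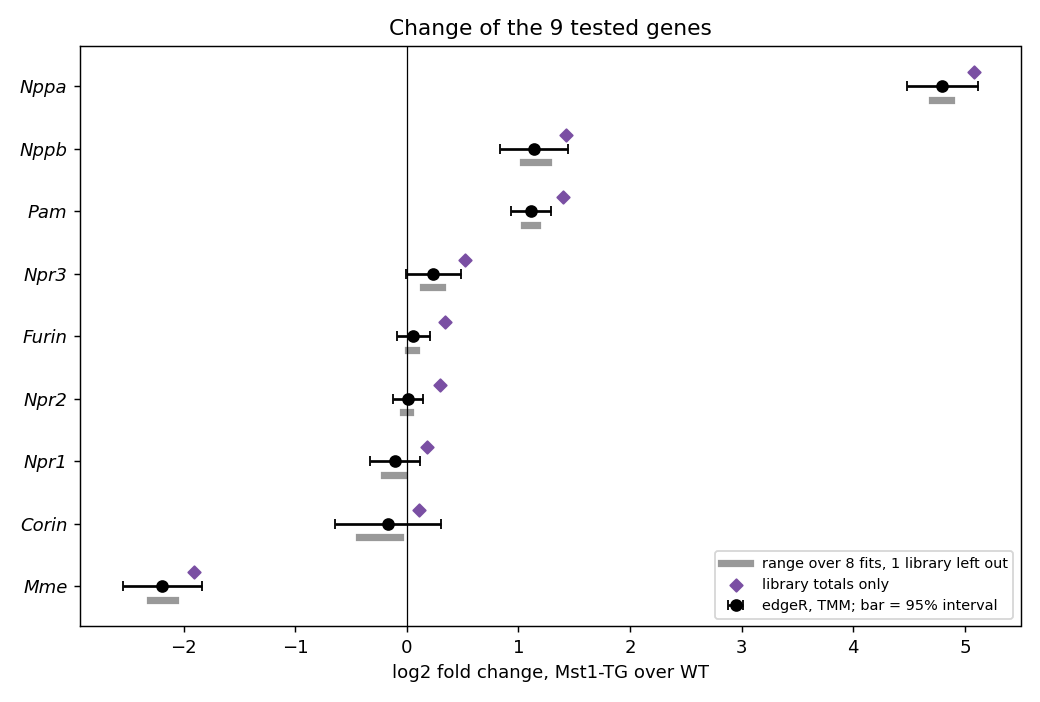
Log2 fold change (Mst1-TG over WT) of the 9 tested genes with 95% intervals (black), the range over 8 fits that each leave out 1 library (grey) and the value with library totals only (purple). Nppa, Nppb, Pam and Mme lie away from 0 under each of these, and the intervals of the other 5 genes include 0.

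Levels of different genes were compared per kilobase, using the median length of each gene's coding transcripts in the GENCODE basic set. In WT the order was Nppb at 319 ± 67.7, Nppa at 253 ± 28.1, Pam at 130 ± 2.26, Corin at 37.6 ± 4.81 and Furin at 32.5 ± 1.62 CPM per kilobase (SD, n = 4). Npr3 at 24.7 ± 3.03, Npr2 at 17.5 ± 1.08 and Npr1 at 15.6 ± 1.63 followed, and Mme at 2.15 ± 0.193 and Nppc at 0.128 ± 0.0942 closed it. The libraries of Nppb and Nppa, of Corin and Furin, and of Npr2 and Npr1 overlapped in this order. In Mst1-TG, Nppa was first at 7033 ± 1247 CPM per kilobase, followed by Nppb at 702 ± 76.1 and Pam at 280 ± 29.0, and the libraries of these 3 did not overlap. Furin, Corin and Npr3 overlapped there at 33.9 ± 2.40, 33.5 ± 11.1 and 29.1 ± 4.30, Mme at 0.468 ± 0.0919 overlapped Nppc at 0.246 ± 0.170, and so did Npr2 and Npr1. The place of Npr3 depends on transcript length, since at its longest transcript (6892 bases) its WT level would be 8.73 CPM per kilobase, below Npr1. So does that of Mme, which at its longest transcript (8039 bases) would be at 0.220 CPM per kilobase in Mst1-TG, below Nppc.

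Downstream of the receptors, cGMP is bound by kinases and broken down by phosphodiesterases. Of 9 tested kinases and effectors 2 rose, 4 fell and 3 did not pass (median -0.44, against 0.01 for all genes). The shares called over all tested genes were 21.2% higher and 21.1% lower. The cGMP-dependent kinase Prkg1 rose by 0.51 ± 0.09 (SE, edgeR adjusted p = 4.53e-04). Phospholamban (Pln), the kinase substrate that restrains the calcium pump, fell by 0.85 ± 0.10, Rgs2, a brake on G protein signalling, by 1.14 ± 0.15, and the kinase partner Mrvi1 by 0.63 ± 0.11. With library totals only the list had 2 rises and 3 falls.

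The phosphodiesterases were called in both directions, as were genes at large (21.2% higher and 21.1% lower). Of 10 tested, 4 rose, 2 fell and 4 did not pass (median 0.08, and 7 higher and 2 lower with library totals only). Pde2a, which cGMP itself stimulates, went from 146 ± 18.8 to 78.1 ± 7.23 CPM (SD, n = 4; log2 fold change -0.90 ± 0.10 SE, edgeR adjusted p = 7.7e-06). Pde1c, a calmodulin-dependent form, fell by 1.09 ± 0.18. The cGMP-selective Pde5a rose by 0.63 ± 0.09 and Pde1a by 0.51 ± 0.11. Of the genes that make cGMP or nitric oxide apart from the receptors, 3 of 5 tested fell and 2 did not pass, beside 21.1% of all tested genes called lower. The guanylyl cyclase subunit Gucy1a1 fell by 0.39 ± 0.08 and the nitric oxide synthases Nos2 and Nos3 by 0.78 ± 0.23 and 0.27 ± 0.10. With library totals only 0 of the 5 was called, and Nos3 turned to 0.02. Nos2 also lost its call without Mst1-TG 2 (adjusted p = 0.057) or Mst1-TG 4 (0.051), and Nos3 without Mst1-TG 1, 2 or 4 or WT 1, 3 or 4 (adjusted p = 0.051 to 0.119).

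**Figure D5:**
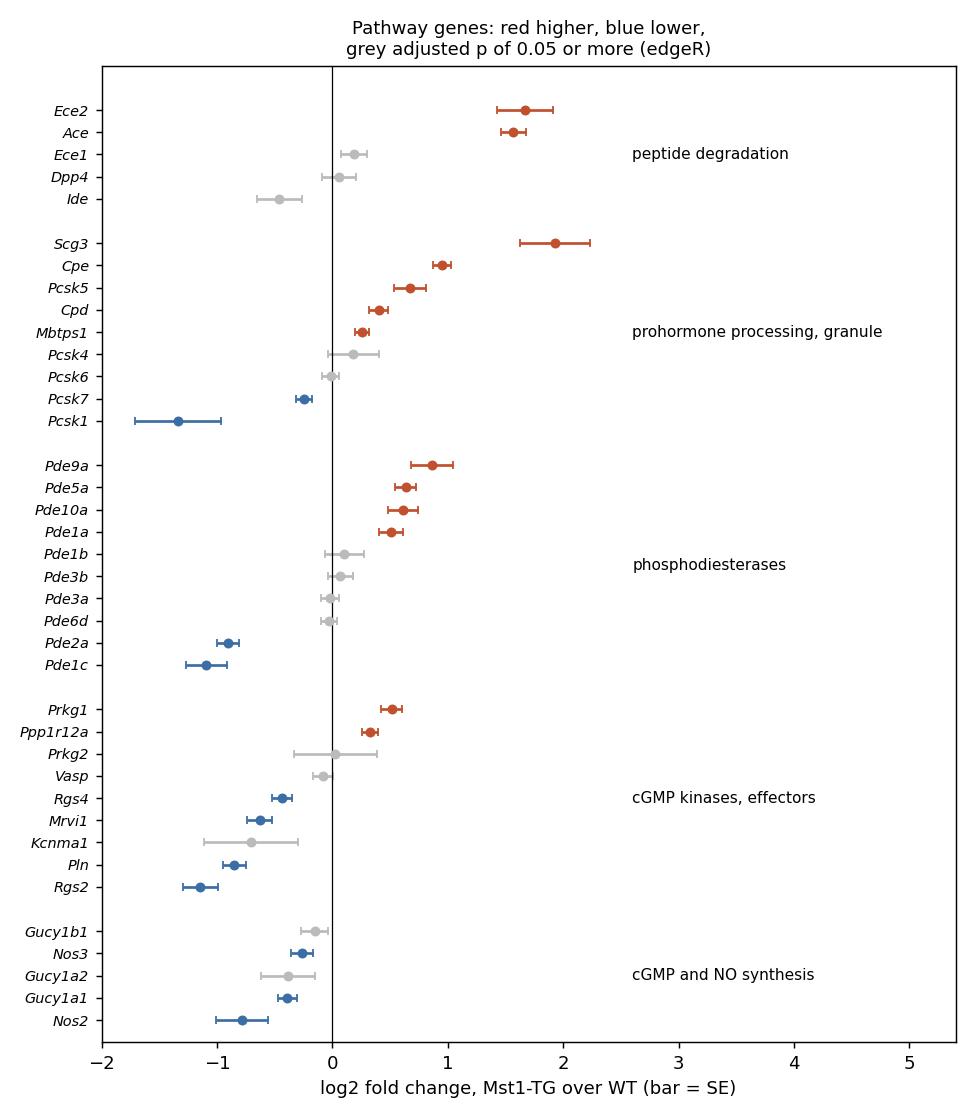
Log2 fold change (Mst1-TG over WT, bar = SE) of tested genes of cGMP and nitric oxide synthesis, cGMP effectors, phosphodiesterases, prohormone processing and peptide degradation. Red genes passed as higher, blue as lower and grey did not pass: Pde5a and Pde1a are red beside a blue Pde2a and Pde1c, and Ace, Cpe and Scg3 are red in the processing and degradation lists.

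Other enzymes and granule proteins of the prohormone route included 5 rises, 2 falls and 2 that did not pass among 9 tested of 16 listed (median 0.25, and 6 higher and 1 lower with library totals only). Beside this, 21.2% of all tested genes were called higher and 21.1% lower. Carboxypeptidase E (Cpe), which trims peptides after their precursors are cut, went from 285 ± 13.4 to 551 ± 49.1 CPM (SD, n = 4; log2 fold change 0.95 ± 0.08 SE, edgeR adjusted p = 5.98e-07). Its relative Cpd rose by 0.40 ± 0.08 and the convertase Pcsk5 by 0.67 ± 0.14. The 2 falls were those of the convertases Pcsk1, by 1.34 ± 0.38 from 0.64 CPM, and Pcsk7, by 0.25 ± 0.07 (SE, edgeR adjusted p = 0.011 and 0.010). The convertases Pcsk4 and Pcsk6 did not pass. Secretogranin III (Scg3), a granule protein, rose by 1.93 ± 0.31 from 0.43 ± 0.15 CPM. The granins Chga, Chgb and Scg2 were too low to be tested. Cpe and Pcsk5, like Pam, moved with the fibroblast markers given above, whose part was not tested.

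Among 5 tested genes of other peptide-degrading enzymes, 2 rose and 3 did not pass (median 0.19, and 3 higher and 0 lower with library totals only). Over all tested genes 21.2% were called higher. Angiotensin-converting enzyme (Ace), a vascular peptidase, went from 79.1 ± 5.62 to 235 ± 38.3 CPM (SD, n = 4; log2 fold change 1.57 ± 0.11 SE, edgeR adjusted p = 2.42e-07), opposite to the fall of Mme. Ece2, an endothelin-converting enzyme, rose by 1.67 ± 0.24. Ostn, whose product osteocrin is a ligand of Npr3, was at or near 0 counts and was not tested.

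Transcription factors known to act at Nppa or Nppb were called in both directions, about as often as genes at large. Of 30 tested 7 rose, 7 fell and 16 did not pass, with a median of -0.02 (16 higher and 1 lower with library totals only). Of all tested genes 21.2% were called higher and 21.1% lower. Tbx3, a T-box repressor of atrial working genes, fell by 0.81 ± 0.10 and its relative Tbx20 rose by 0.60 ± 0.12. The Hippo-regulated coactivator Yap1 rose by 0.25 ± 0.06, and Nfatc4, a calcineurin-dependent factor, by 0.50 ± 0.12. Among factors of the searched motifs, Nkx2-5 fell by 0.30 ± 0.09, Tbx5 by 0.46 ± 0.12 and Srf by 0.32 ± 0.08 (SE, edgeR adjusted p = 0.020, 0.0092 and 0.0082). Tead2 rose by 0.35 ± 0.12 (edgeR adjusted p = 0.027), and Gata4, Gata6 and the other Tead genes did not pass. With library totals only, Tbx3 alone was called lower.

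Over the 8 libraries, the log2 CPM of Nppa was most like that of Ctsk (Pearson r = 0.998), Ro60 (0.997) and Stk4 (0.997) among 11716 genes with an ordinary symbol and a mean log2 CPM of at least 1. That of Nppb was most like Zmiz1 (0.995), Ccdc112 (0.992) and Loxl4 (0.992). That of Npr3 was most like Cpne8 (0.970), Ctps2 (0.957) and Kazald1 (0.952). These values describe 8 points in 2 separate groups: 1380 genes had an r above 0.9 with Nppa, 811 with Nppb and 20 with Npr3.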

How the data were processed

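RNA-seq of 8 left ventricle libraries (4 Mst1-TG, 4 WT) was used. Per the labels' protocols, ribosomal RNA was removed from 200 ng of RNA before directional libraries were made. The submitters' processing notes name bcl2fastq 2.19.1.403 and kallisto 0.46.0. The authors deposited estimated counts per gene as whole numbers, unscaled. The index, build, annotation and strand setting: not given in the sources used here. Gene identifiers match GENCODE M21 (GRCm38), which gave positions and lengths.

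The tests ran in edgeR 4.0.16 (R 4.3.3): filterByExpr (minimum count 10, minimum total 15), TMM scaling, robust quasi-likelihood F test and Benjamini-Hochberg adjustment over 15314 genes. The biological coefficient of variation was 11.4% and the median SE of a log2 fold change 0.11, which is the precision of 4 libraries per group with this spread and depth. The test was tried on simulated data first. Ratios used an exact permutation test over samples. Replicates of a group differed by more than counting noise. Since nothing states that samples are separate animals, p-values measure only the spread among them, which may be technical. DESeq2 1.42.0, limma-voom (limma 3.58.1), other scalings and filters, a replicate block and leaving out each library were alternatives.

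The genes studied, the 16 further lists and the tests were chosen with earlier results of these data known. Named genes were all 10 members, Stk4, from each list up to 4 called genes in order of p, and the 3 most similar genes of Nppa, Nppb and Npr3. Marker genes (Etv1 and Cntn2 included), Clcn6, Gm13054, the genes listed as untested and those named as not passing stand outside that rule. Epicardial markers (Upk3b, Wt1, Msln and Krt19) held 1 rise, of Krt19, among 4. A marker gene and a sequence comparison are not reported here.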

Additional observations from a re-analysis of the deposited data

Results flagged for a closer look

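Corin in Mst1-TG 2, at 231.8 CPM, lay far from the other 3 transgenic libraries (118.9 to 136.9 CPM). The gap to its nearest neighbour was 0.841 of the range of the group, above Dixon's 95% limit for 4 samples. It was the only such value among 30 groups of 4 examined, and chance alone marks about 1 in 20. The values of Corin with and without this library are given above.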

How the results depend on the processing

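Nppa, Nppb, Pam and Mme kept their direction and their call in all 17 alternatives, with log2 fold changes of 4.70 to 5.09, 1.05 to 1.43, 1.05 to 1.396 and -2.30 to -1.91. Of 153 alternative values of the 9 tested genes, 147 kept their side of the threshold and 6 passed newly, as named above for Npr2, Npr3, Corin and Furin. With library totals only, 7409 genes were called higher and 1592 lower, 7 of the 9 genes were called, 6 of them higher, and Nos3 reversed to 0.020. Against a minimum 1.5-fold change, 1742 genes were called, 894 higher and 848 lower. Leaving out each library in turn, 1 to 2 of the 9 genes were called lower (2 without Mst1-TG 2) and the log2 ratio of Npr3 to Npr1 was 0.24 to 0.41. Its adjusted p was 0.0571 without any 1 transgenic library and 0.0286 without any 1 WT library (exact permutation test, two-sided).

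Libraries with the same number did not deviate together (correlations of -0.142, 0.075, 0.018 and -0.018), so the numbers are only names. With a replicate block 6187 genes were called, 3064 higher and 3123 lower, and 4 of the 9 genes, while Mad2l2 lost its call (adjusted p = 0.053). Stard10 gained a call there (edgeR adjusted p = 0.012). The paired differences of the 3 log2 ratios were 3.63, 5.002 and 0.35, each with an adjusted p of 0.125 (exact sign-flip test), the smallest that 4 pairs can give. Of 714 values for 42 other named genes, 637 kept their side, 63 lost and 13 gained a call, and 1 reversed. Depth limits Nppc most.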
